A study of Homo sapiens with 6 samples.

Results

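The mTOR kinase complexes and their regulators were examined for H4K5la, the mark left when a lactyl group, which derives from lactate, is added to lysine 5 of histone H4. The 10 genes were TSC1, TSC2, RHEB, MTOR, MLST8, DEPTOR, RPTOR, AKT1S1, RICTOR and DEPDC5, out of 19974 protein-coding genes on chromosomes 1 to 22 and X. They were chosen by name, and a gene's window was its annotated RefSeq span plus 5 kb on either side. The cells were PLC/PRF/5, an established human hepatocellular carcinoma line, and the mark was located by sequencing of immunoprecipitated chromatin (ChIP-seq). One group is labelled control, with no treatment named, and the other was grown for 24 h in 20 mM lactate, supplied as lactic acid. Each group had 2 libraries with a peak list (replicates 2 and 3), made with the same H4K5la antibody. The 10 windows held 99 and 111 peaks in control replicates 2 and 3, out of 52215 and 52959, and 78 and 78 in lactate replicates 2 and 3, out of 37951 and 38402. Nothing in the labels says that the replicates came from separate cultures, so the spread between them may be technical.

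The mechanistic target of rapamycin (mTOR) is a kinase that couples nutrients and growth factors to protein synthesis, lipid synthesis and autophagy. It works in a pair of complexes, mTORC1 with the scaffold RPTOR and mTORC2 with the scaffold RICTOR, and MLST8 is a subunit of each. The TSC1 and TSC2 proteins form a complex that switches off the small GTPase RHEB, the direct activator of mTORC1. In liver the pathway is known for its control of lipid and glucose metabolism after feeding, and it is often active in hepatocellular carcinoma.

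The start sites of the genes are shown first, because no matched member's start lay under a peak while many RPTOR peaks lay inside the gene. RefSeq gives the 250 bases upstream of an annotated start on GRCh38.p14 for 7 of the 10 members. MLST8, AKT1S1 and DEPTOR were not matched. In the sequences below, written 5′ to 3′ on the strand of the gene, capitals mark each CG dinucleotide. The first 3 are upstream of RPTOR (chr17:80544588-80544837, plus strand), TSC2 (chr16:2047735-2047984, plus strand, the first of its 2 listed starts) and RICTOR (chr5:39074400-39074649, minus strand). The fourth is upstream of LOC105371922, a noncoding RNA gene inside RPTOR (chr17:80586962-80587211, minus strand), and lay wholly under a peak in all 4 libraries.
RPTOR: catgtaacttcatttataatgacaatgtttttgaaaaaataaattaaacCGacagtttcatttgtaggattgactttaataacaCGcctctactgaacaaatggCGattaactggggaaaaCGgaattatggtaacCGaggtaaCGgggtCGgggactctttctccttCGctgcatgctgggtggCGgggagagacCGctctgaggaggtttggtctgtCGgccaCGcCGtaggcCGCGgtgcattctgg
TSC2: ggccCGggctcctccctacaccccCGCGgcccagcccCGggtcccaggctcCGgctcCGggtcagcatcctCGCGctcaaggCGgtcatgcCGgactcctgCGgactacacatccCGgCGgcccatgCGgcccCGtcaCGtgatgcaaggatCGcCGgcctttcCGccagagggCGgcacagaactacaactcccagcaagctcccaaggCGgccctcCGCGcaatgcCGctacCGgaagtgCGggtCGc
RICTOR: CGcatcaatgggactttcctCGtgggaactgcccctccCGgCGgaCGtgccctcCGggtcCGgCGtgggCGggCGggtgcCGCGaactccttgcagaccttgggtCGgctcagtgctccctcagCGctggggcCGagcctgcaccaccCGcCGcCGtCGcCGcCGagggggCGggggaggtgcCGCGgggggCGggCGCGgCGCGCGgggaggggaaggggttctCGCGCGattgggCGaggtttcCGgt
LOC105371922: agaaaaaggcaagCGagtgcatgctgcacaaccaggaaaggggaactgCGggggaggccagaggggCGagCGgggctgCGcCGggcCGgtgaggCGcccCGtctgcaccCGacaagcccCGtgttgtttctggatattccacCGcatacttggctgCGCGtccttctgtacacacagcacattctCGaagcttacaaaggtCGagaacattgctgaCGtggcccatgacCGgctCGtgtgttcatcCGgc

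The RPTOR sequence held 15 CG dinucleotides, that of LOC105371922 held 20, that of TSC2 held 27 and that of RICTOR held 35. The median over all 35116 starts in the table was 11. No peak overlapped the upstream sequence of any of the 7 matched members in any library, and the same held for 87.3% of coding gene starts. Over all starts, a peak in all 4 libraries was found at 2.34% of those with 0 to 9 CG, 5.69% with 10 to 19, 1.68% with 20 to 29 and 0.0688% with 30 or more. The nearest peak to the RPTOR start began 94, 157 and 97 bp downstream of it in control replicates 2 and 3 and lactate replicate 2, and lay 18369 bp away in lactate replicate 3. From the first TSC2 start the nearest peak lay 2874 and 3039 bp away in the controls against 3057 and 2876 bp away with lactate. From RICTOR it lay at least 182177 bp away in every library. The LOC105371922 start lay under peaks of 759 and 865 bp in the controls against 767 and 760 bp with lactate.

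Over the whole genome, peaks covered 41.0 Mb in each control library and 22.03 and 21.75 Mb with lactate, a ratio of lactate to control of 0.534. The lists give no read counts, but the number of reads at each summit could be recovered from the authors' fold enrichment and p-value. Relative to control replicate 2, immunoprecipitated depth was 0.940, 0.786 and 0.887 in control replicate 3 and lactate replicates 2 and 3. A peak list shows where signal passed the caller's threshold, so a gene without a peak may carry the mark below it. Of 15 hepatocyte and liver carcinoma genes, 9 had no peak in any library, among them ALB, AFP, APOB and TTR. Of all 19974 coding genes 40.6% had none. Of 5 leukocyte genes 4 had a peak in at least 1 library, and of 6 stromal and endothelial genes 5 had one in all 4. The share of all coding genes with a peak in all 4 is not given here. Peaks of this mark therefore cannot check the labelled cell type, and no RNA was measured here.

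Most of the bases under peaks in the 10 windows lay in RPTOR, whose window made up 431531 of the 1308036 bp, and in TSC2. RPTOR held 73.3% and 72.0% of all the bases under peaks in the 10 windows in the controls against 80.3% and 81.2% with lactate. TSC2 held 19.5% and 18.6% in the controls against 10.9% and 11.4% with lactate. As a share of its own window, TSC2 had 44.3% and 44.1% in the controls against 10.5% and 10.8% with lactate. RPTOR had 19.9% and 20.4% against 9.21% and 9.18%. MLST8 had 22.1% and 32.4% against 0 and 2.22%, and AKT1S1 16.7% and 22.8% against 11.2% and 10.5%. RHEB, DEPTOR and RICTOR had no peak in any library, and TSC1, MTOR and DEPDC5 had at most 3 in any library. Peaks covered 117147 and 122118 bp of the 10 windows in the controls against 49468 and 48749 bp with lactate. The ratio of lactate to control was 0.410, and 0.288 over the windows other than RPTOR.

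The covered length was lower in both lactate libraries than in both control libraries at 6 of the 7 genes with a peak, which were TSC1, TSC2, MLST8, RPTOR, AKT1S1 and DEPDC5. This was also true of 55.1% of the 11870 coding genes with a peak in any library. It was higher in both lactate libraries at MTOR, as at 5.72% of those coding genes. The number of peaks was lower in both lactate libraries at TSC2, MLST8, RPTOR and DEPDC5, against 32.6% of coding genes. The widest peak was narrower in both at the same 6 genes as the covered length, against 51.1% of coding genes, and wider in both at MTOR, against 6.18%. No member had more peaks in both lactate libraries, against 3.79% of coding genes. With 2 libraries against 2, an exact two-sided permutation test of a single gene cannot give a p below 0.33. Restricting each library to its 37951 peaks of highest -log10 p left 4 genes with less covered length in both lactate libraries, against 38.6% of coding genes.

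**Figure D1:**
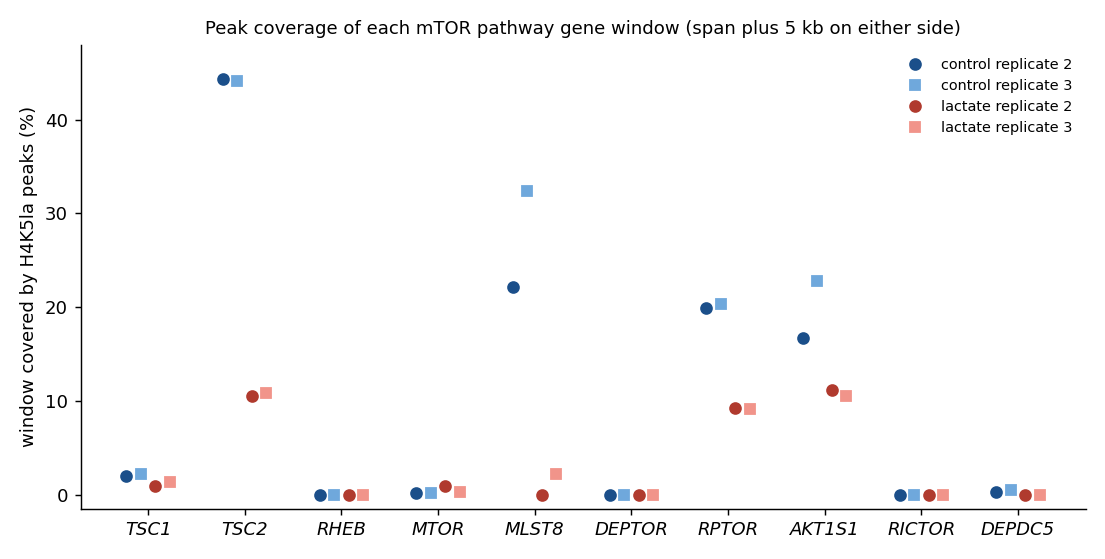
Share of each gene window (annotated span plus 5 kb on either side, y axis in percent) that lay under H4K5la peaks, with 1 point for each library. The control points of TSC2 (44.3% and 44.1%) stand far above its lactate points (10.5% and 10.8%), while RHEB, DEPTOR and RICTOR are at 0 in all 4 libraries.

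TSC2 encodes tuberin, the GTPase-activating subunit that turns off RHEB, and lies on chromosome 16 from 2047985 to 2089491 (hg38). Peaks covered 22833 and 22733 bp of its window in control replicates 2 and 3, and 5412 and 5560 bp in lactate replicates 2 and 3. The control libraries lay close together and far above both lactate libraries. The difference was -17297 bp, from 22783 ± 70.7 to 5486 ± 105 bp (SD, n = 2 each; exact permutation p = 0.33). The window held 10 and 10 peaks in the controls against 6 and 7 with lactate. When peaks within 1 kb of each other were joined, these became 5 and 5 against 4 and 6, so the groups overlapped.

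Most of the difference lay in the 3′ part of the gene. From 2070152 to 2086917, a stretch of 16.8 kb singled out after its values were seen, peaks covered 93.9% and 88.2% of the bases in the controls against 4.29% and 3.74% with lactate. Lactate replicate 2 had peaks of 332 and 387 bp there, and lactate replicate 3 a single peak of 627 bp at another place. In the rest of the window upstream of that stretch, peaks covered 26.1% and 29.3% in the controls against 17.3% and 18.2% with lactate. The ratio of lactate to control was 0.0441 in the 3′ stretch and 0.640 upstream of it. Places with a peak in all 4 libraries included 2053927 to 2055391 and 2056022 to 2058172, near the 5′ end of TSC2, and 2043215 to 2045111, inside the neighbouring DNA repair gene NTHL1. The window also overlaps one end of PKD1, the polycystic kidney disease gene, and no summit lay in that overlap.

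**Figure D2:**
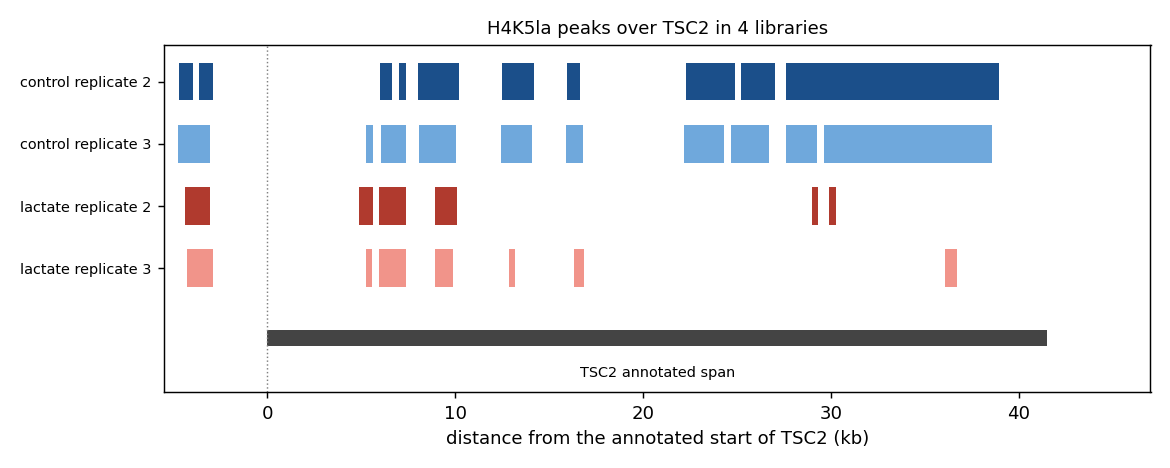
H4K5la peaks over TSC2 in the 4 libraries (rows), drawn to scale against the distance from the annotated start of the gene in kb, with the annotated span as a dark bar. The control libraries carry peaks of 11327 and 8949 bp toward the 3′ end, where the lactate libraries carry peaks of at most 387 and 627 bp.

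TSC1 encodes hamartin, which stabilises tuberin, and lies on chromosome 9 from 132891349 to 132945378. Its window had 1260 and 1408 bp under peaks in the controls against 592 and 850 bp with lactate, which did not overlap (1334 ± 105 against 721 ± 182 bp, SD, n = 2; exact permutation p = 0.33). None of the control peaks had its summit in TSC1. One place, shared by all 4 libraries, lay over GFI1B, a blood transcription factor gene, and the other, in the control libraries alone, over SPACA9. The 1 peak inside TSC1 was in lactate replicate 3 and 350 bp wide. It lay 205 bp from the TSC1 start listed at 132944616, which is inside the annotated span and not at its end. Over the annotated span alone the covered length was 0 and 0 bp in control and 0 and 350 bp in lactate libraries. RHEB, on chromosome 7 from 151466012 to 151519895, had no peak, and the nearest one lay at least 33399 bp from its start in each library.

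MTOR, which encodes the kinase itself, lies on chromosome 1 from 11106535 to 11262551. A single narrow peak was found at one place in all 4 libraries, with summits between 11130619 and 11130638, well inside the gene. Its width was 334 and 320 bp in the controls against 716 and 401 bp with lactate. Lactate replicate 2 had further peaks of 402 and 444 bp, which lactate replicate 3 lacked. The covered length was therefore 334 and 320 bp in control and 1562 and 401 bp in lactate libraries, and the lactate libraries differed from each other by more than lactate replicate 3 differed from the controls. The difference of 654.5 bp (327 ± 9.90 against 981.5 ± 821 bp, SD, n = 2; exact permutation p = 0.33) was 74 bp without lactate replicate 2 and 1235 bp without lactate replicate 3. MTOR was the only one of the 10 genes with more covered length in both lactate libraries.

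MLST8, the small WD-repeat subunit of both complexes, lies on chromosome 16 from 2205454 to 2209453, in the same chromosome end as TSC2. Peaks covered 3098 and 4538 bp of its window in the controls against 0 and 311 bp with lactate. Both control libraries had a peak overlapping the gene itself, where the lactate libraries had none. By summit, 1 of the 4 control peaks lay in MLST8, at 2207058 in control replicate 2, and the other 3 past its end. The 1 lactate peak lay wholly past the end. Its summit lay over BRICD5, as did those of 2 control peaks. The widest peak was 1897 and 4112 bp in the control libraries, and its lactate difference of -2849 bp became -1741.5 bp without control replicate 3. DEPTOR, an inhibitory partner of mTOR, lies on chromosome 8 from 119873722 to 120050918 and had no peak in any library.

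RPTOR encodes raptor, which brings substrates to mTORC1. It lies on chromosome 17 from 80544838 to 80966368 and is the longest of the 10 genes, at 421.5 kb. Its window held 81 and 88 peaks in the controls against 66 and 65 with lactate. By mean number of control peaks it ranked 17 among the 19974 coding genes and by covered length 14, measures that grow with gene length. By the share of its window under control peaks it ranked 882. Peaks covered 85897 and 87866 bp in the controls against 39742 and 39596 bp with lactate. Each group was tight and the groups lay far apart, at 86881.5 ± 1392 against 39669 ± 103 bp (SD, n = 2; ratio 0.457, exact permutation p = 0.33).

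The mark was uneven along RPTOR. The gene was divided into 10 equal parts, numbered from its 5′ end. In parts 1 to 6 peaks covered 7.25% and 8.04% of the bases in the controls against 4.66% and 4.60% with lactate. In parts 7 to 10 they covered 37.9% and 37.8% in the controls against 16.1% and 16.1% with lactate. This split was chosen after the values were seen. The ratio of lactate to control was lowest in part 9, at 0.271, where control libraries had 17731 and 17268 bp and lactate libraries 5431 and 4037 bp. In parts 2 and 3 the groups overlapped, and in the other 8 both lactate libraries were lower.

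**Figure D3:**
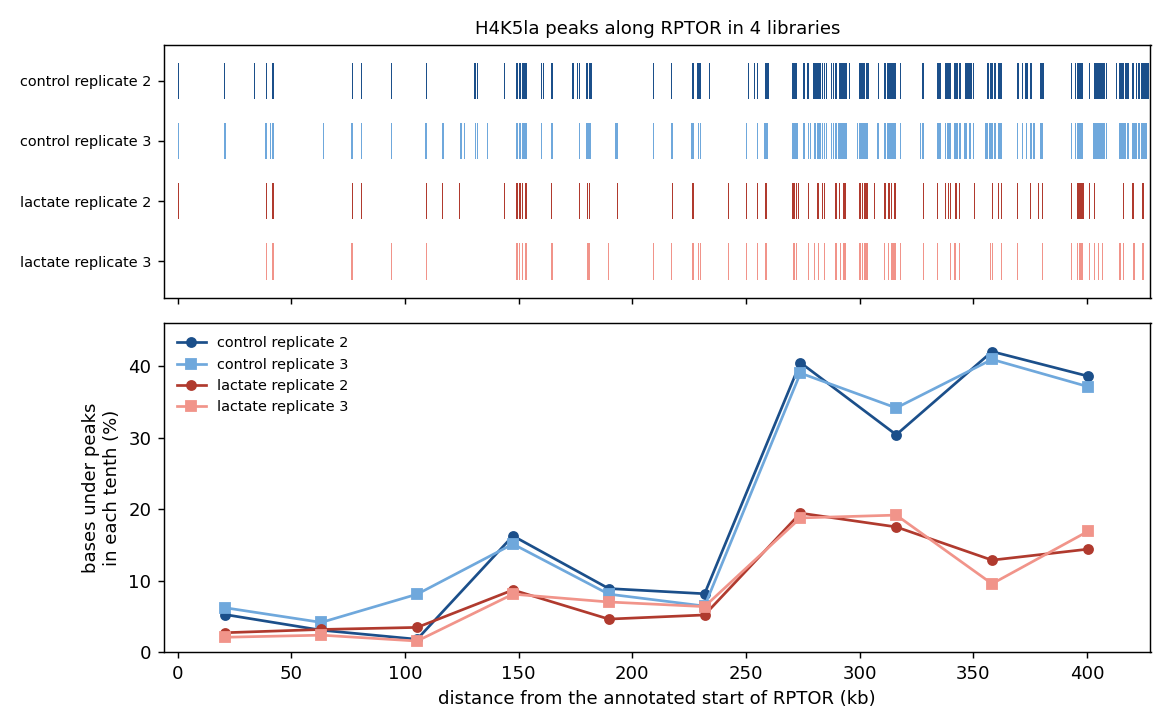
Upper panel, H4K5la peaks along RPTOR in the 4 libraries, to scale; lower panel, percent of bases under peaks in each of 10 equal parts of the gene, both against the distance from the annotated start in kb. In parts 7 to 10 the control libraries reach 30.4% to 42.1%, and the lactate libraries stay between 9.58% and 19.5%.

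Peaks in RPTOR were both fewer and narrower in the lactate libraries, as were the peaks of the whole lists. The median width in RPTOR was 644 and 669 bp in the controls against 443.5 and 437 bp with lactate. Over all peaks of the libraries it was 547 and 537 bp in the controls against 448 and 437 bp with lactate. The whole lists held 52215 and 52959 peaks in the controls against 37951 and 38402 with lactate. RPTOR had 12 and 10 control peaks 2 kb or wider against 1 and 2 in lactate, while peaks under 500 bp numbered 25 and 34 against 38 and 38. After joining peaks within 1 kb, RPTOR held 51 and 52 stretches in the controls against 52 and 54 with lactate, a difference of 1.5 in the other direction. The widest control peaks lay at 80947954 to 80952612 (4659 bp) in replicate 2 and 80947659 to 80952663 (5005 bp) in replicate 3. That place held 1 and 3 peaks in lactate replicates 2 and 3.

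Most lactate summits in RPTOR lay inside control peaks, and fewer control summits lay inside lactate peaks. Of the lactate summits, 86.4% and 92.4% (replicate 2) and 89.2% and 89.2% (replicate 3) lay inside a peak of control replicates 2 and 3, and 78.8% and 80.0% inside a peak of the other lactate library. Wider control peaks hold more summits by their width alone. Of the control summits, 48.9 to 54.3% lay inside a lactate peak, and 84.0% and 76.1% inside a peak of the other control library. Of the 98 merged RPTOR regions, 38 (38.8%) held a peak in all 4 libraries. A single one, from 80786843 to 80787313, had a peak in both lactate libraries and in neither control library. Its lactate peaks had a fold enrichment over background of 15.4 and 13.0 and 31 and 29 reads at the summit.

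AKT1S1 encodes PRAS40, an mTORC1 inhibitor that AKT phosphorylates, and lies on chromosome 19 from 49869033 to 49878356. Its window had 3230 and 4403 bp under peaks in the controls against 2160 and 2031 bp with lactate. Most of this was not in AKT1S1. The widest peak, 2973 and 2898 bp in the controls against 1152 and 1202 bp with lactate, lay over TBC1D17, a Rab GTPase-activating protein gene. Over the annotated span alone AKT1S1 had 1220 bp under 4 small peaks in control replicate 3 and none in the other 3 libraries, so the groups overlapped. Without control replicate 3 the difference over the full window was -1134.5 bp in place of -1721 bp.

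RICTOR, the mTORC2 scaffold gene, lies on chromosome 5 from 38937920 to 39074399 and had no peak in any library. DEPDC5 encodes a subunit of GATOR1, the complex that restrains mTORC1 when amino acids are scarce, and lies on chromosome 22 from 31753968 to 31908033. The control libraries had a peak of 495 and 454 bp near its 3′ end, with summits at 31906265 and 31906480, and control replicate 3 had another of 396 bp over the neighbouring PRR14L. The lactate libraries had none, and the covered length was 495 and 850 bp against 0 and 0 bp. None of these control peaks was among the 37951 of highest -log10 p in its library.

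The 3 genes without a peak are not short. Of the 1955 coding genes with spans of 100 to 200 kb, the class of RICTOR and DEPTOR, 33.0% had no peak in any library, and their median was 1 control peak. Of the 3455 coding genes of 30 to 60 kb, which include RHEB, 39.7% had none. TSC2 falls in that same class, where the median was 0.5 control peaks. By the share of its window under control peaks it ranked 93 of all coding genes, at 44.2%, and its lactate share of 10.7% stood at percentile 96.4.

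The ratio of lactate to control covered length was also set against all coding genes. Over the 11103 with any covered length in the control libraries the median ratio was 0.489. RPTOR (0.457), TSC1 (0.540) and AKT1S1 (0.549) were near it, at percentiles 46.3, 55.1 and 56.1. TSC2, at 0.241, stood at percentile 27.7, MLST8, at 0.0407, at percentile 21.4, and DEPDC5 was at 0. A ratio of 0 is shared by all genes with covered length in the controls alone, and that of DEPDC5 rested on 672.5 control bp. Among the 253 genes with at least 20000 bp under control peaks the median ratio was 0.493. Of these, 4 had a lower ratio than TSC2 and 97 a lower ratio than RPTOR. MTOR, at 3.002, stood at percentile 99.3 of the 11103 genes, on a base of 327 control bp.

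**Figure D4:**
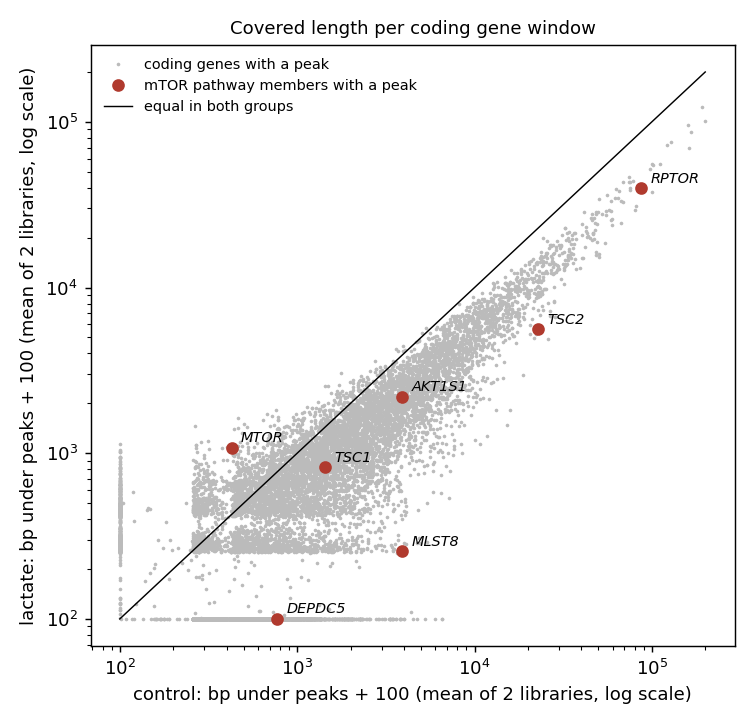
Covered length in the control libraries (x axis) against the lactate libraries (y axis), each the mean of 2 libraries in bp plus 100 on a log scale, for the 11870 coding genes with a peak in any library (grey) and the 7 mTOR pathway genes among them (red). TSC2 lies below the main band of genes at its control level, RPTOR lies in it, and MTOR lies above the line of equal values.

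The local background that the caller set against the reads at a summit, recovered from the fold and the p-value, differed between the groups at several of these genes. It is given here as a multiple of the lowest background the caller used in that library. At TSC2 the median over peaks was 3.48 and 3.46 in the controls against 7.01 and 5.19 with lactate. At RPTOR it was 1.48 and 1.52 against 2.71 and 2.60, and over all peaks of the libraries 1.20 and 1.25 against 1.35 and 1.46. At AKT1S1 it ran the other way, at 3.92 and 5.37 in the controls against 2.52 and 2.19 with lactate, and at TSC1 it was 2.99 and 2.39 against 1.899 and 2.14. Peaks are called only where reads exceed the background, so the peaks compared were selected on it.

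Median reads at the called summits, scaled for depth, were higher in both lactate libraries at TSC2, RPTOR, AKT1S1 and MTOR. The share of all coding genes with such a difference was not computed, so this does not set the members apart. Scaled to the depth of control replicate 2, the median at TSC2 was 28 and 30.9 reads in the controls against 42.6 and 39.5 with lactate. At RPTOR it was 26 and 28.7 against 35.6 and 35.0, while at TSC1 the groups overlapped, at 22.5 and 26.1 against 20.4 and 24.8. AKT1S1 had 30 and 29.3 against 39.5 and 40.6, and MTOR 20 and 19.15 against 20.4 and 29.3, each on few peaks. The lactate summits in the AKT1S1 window all lay over TBC1D17. Over all peaks of the libraries the median before scaling was 23 and 23 reads in the controls against 21 and 24 with lactate. Divided by the relative depths of 1 and 0.940 against 0.786 and 0.887, both lactate medians lay above both control medians here too. Summits of a control and a lactate library that lay within 200 bp of each other were also compared in the 10 windows. For control replicate 2 against lactate replicates 2 and 3 the median ratio of lactate to control background was 1.49 and 1.52 (36 and 43 pairs). For control replicate 3 it was 1.28 and 1.56 (46 and 37 pairs). RPTOR supplied 33, 38, 39 and 32 of these pairs, with ratios of 1.52, 1.49, 1.26 and 1.24. Over all such pairs in the genome the ratio was between 1.04 and 1.05. The median ratio of depth-scaled reads was also taken over these pairs. In the 10 windows it was 1.27 and 1.16 for control replicate 2, and 1.20 and 1.14 for control replicate 3. Over all pairs in the genome these ratios were 1.13 and 1.13, and 1.03 and 1.06. From the same recovery, the relative depth of the input was 0.958 and 0.959 for lactate replicates 2 and 3 and equal to 3 significant digits for the control replicates. The labels list 1 input library for each treatment. In all of these differences the input and the treatment cannot be told apart, and the part of the background in them was not tested.

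**Figure D5:**
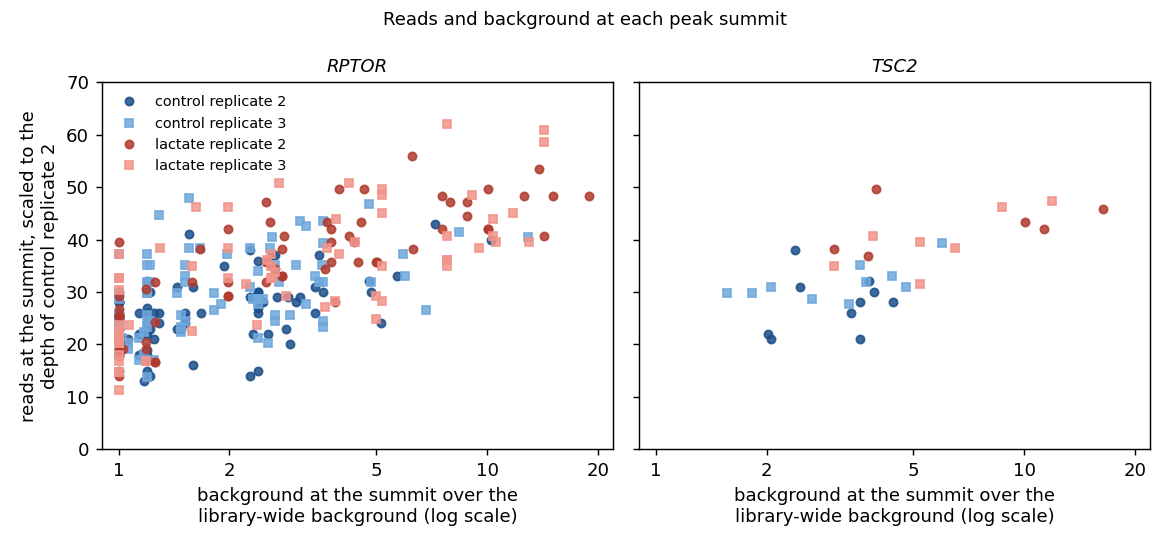
Reads at each peak summit, scaled to the depth of control replicate 2 (y axis), against the caller's background there as a multiple of the lowest in the library (x axis, log scale), for RPTOR and TSC2, with 1 point for each peak. The lactate peaks of TSC2 reach backgrounds of 16.4 and 11.9, and the control peaks 4.40 and 5.98.

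Merging the peaks of the 4 libraries gave 122 regions in the 10 windows, 98 of them in RPTOR. Of these 122, 45 (36.9%) held a peak in all 4 libraries, 20 (16.4%) in both control libraries alone and 1 (0.820%) in both lactate libraries alone. Over the 71122 regions of the series these shares were 28.8%, 14.6% and 2.75%. At TSC2, 4 of 8 regions were present in all 4 libraries and 1, from 2070152 to 2075019, in the control libraries alone. Of the 4, the region from 2075591 to 2086917 was joined by wide control peaks. The peaks of the lactate libraries in it did not overlap each other. Without control replicate 2 the control-only regions numbered 43, and without control replicate 3 they numbered 34, since 1 library then stood for its group. The share over all regions of the series was not computed with a library left out.

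Other genes of the pathway were described from 5 lists. Of 6 genes for mTORC2 subunits and mTOR assembly factors, 5 had a peak in any library, and all 5 had less covered length in both lactate libraries. PRR5, an mTORC2 subunit gene, had 17736 and 16382 bp in the controls against 6869 and 6877 bp with lactate. MAPKAP1, which encodes the mTORC2 subunit SIN1, had 7248 and 7008 bp against 4276 and 3743 bp. TELO2, an assembly factor gene at the same end of chromosome 16 as TSC2, had 363 and 2180 bp against none. The median difference over the 5 was -1272 bp, and -437 bp over all coding genes with a peak.

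Of 17 genes for the GATOR complexes, KICSTOR and amino acid sensors, 12 had a peak, 8 of these had less covered length in both lactate libraries and none had more (median difference -488.5 bp). NPRL3, which encodes the partner of DEPDC5 in GATOR1, had 5417 and 6935 bp in the controls against 841 and 1455 bp with lactate. CASTOR1, the arginine sensor gene, had 2849 and 3564 bp against none. Of 13 genes for Rag GTPases, Ragulator and lysosomal anchors, 6 had a peak, 2 had less and none had more (median -182 bp). The 2 were FLCN, the folliculin gene, with 2220 and 1846 bp against 1365 and 1485 bp, and LAMTOR1, a Ragulator subunit gene, with 382 and 406 bp against none. The LAMTOR1 peak of control replicate 3 was 1072 bp wide and extended past the outer edge of the window. LAMTOR4 had 0 and 395 bp in the controls against 503 and 344 bp with lactate, which overlap.

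Of 24 genes for insulin, PI3K and AMPK inputs, 14 had a peak, 10 had less covered length in both lactate libraries and none had more (median -1352 bp). PRKAG2, an AMPK subunit gene, had 31743 and 33085 bp against 23590 and 21645 bp, and it held 37 and 44 peaks in the controls against 38 and 38 with lactate. AKT2 had 14624 and 13261 bp against 8868 and 8434 bp, and PIK3CD 9104 and 10488 bp against 4285 and 5489 bp. Of 17 genes for mTOR substrates and effectors, 12 had a peak, 8 had less and 1, the cap-binding factor gene EIF4E, had more (median -790 bp). ULK1, the autophagy kinase gene, had 5579 and 6036 bp against 1578 and 1755 bp, while GRB10 had 10760 and 9419 bp against 7185 and 6384 bp. TFEB, the lysosomal transcription factor gene, had 9799 and 8707 bp against 6946 and 6392 bp. The lists were chosen with results of these data known, so their counts stand beside the 55.1% of all coding genes as descriptions.

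The 5 coding genes whose widest peaks were most like those of TSC2 over the 4 libraries were ARFGAP1, PLCH2, KCNT1, SLC17A9 and PFKL. Likeness was the Euclidean distance of log2(width + 1), which ran from 0.309 for ARFGAP1 to 0.537 for PFKL. ARFGAP1 had widest peaks of 11029 and 10954 bp in the controls against 1546 and 1445 bp with lactate. At TSC2 these were 11327 and 8949 bp against 1450 and 1420 bp. The covered length of PLCH2 was larger than that of TSC2, at 50148 and 50223 bp in the controls against 15820 and 16041 bp with lactate. With 4 libraries this likeness is a description of width alone.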

How the data were processed

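ChIP-seq of H4K5la was done on PLC/PRF/5 cells, labelled control or lactate (20 mM, 24 h). MACS2 2.2.6 and Bowtie2 2.3.4.2 are named, with the build hg38, per the submitters' processing notes. The deposited lists hold 1 library each, with an integer score (not used beyond reading), a fold ratio over background and, also on the -log10 scale, a p-value with its q-value. The 2 input libraries were not analysed here.

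Peaks were counted in a window when they shared at least 1 bp with it, and covered length is the bases inside it. Gene spans were those of RefSeq on GRCh38.p14, given without exons or introns, so these were not assigned. For summit reads only whole numbers were tried, with a scale fitted for each library. For 100% of peaks one of them gave the deposited -log10 p, given the fold, within a tolerance of 0.001. The method was tested on simulated data, whose backgrounds were lower than the highest found here. Analyses used Python 3.11.15, pandas 2.3.3, numpy 2.4.6, scipy 1.17.1 and matplotlib 3.10.9.

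Groups were compared by whether their libraries overlapped and by exact permutation over the 6 assignments. All 10 members are named, with up to 3 genes per list by the largest difference in covered length, the coding genes overlapping a member's window where a result turns on them, and the 5 genes most like TSC2. Some genes that this rule names are not reported here. The members and lists were chosen with earlier results of these data known. Other settings were flanks of 0 and 10 kb, a -log10 q of at least 5, equal numbers of peaks, joining within 1 kb, summit position, a reciprocal overlap of 50%, each library left out and a replicate block.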

Additional observations from a re-analysis of the deposited data

How the results depend on the processing

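The ratio of covered length over the 10 windows was 0.410, and 0.469 with equal numbers of peaks. In that setting 2 members had fewer peaks in both lactate libraries, in place of 4. Less covered length was found at 4187 coding genes in place of 6544 (38.6% of those with a peak in place of 55.1%). Joining peaks within 1 kb gave 2 members with fewer peaks and 7 control-only regions in place of 20. The share of all coding genes with fewer peaks was not computed for these settings, so the counts of members have no background. A reciprocal overlap of 50% gave 24 regions in all 4 libraries in place of 45, and 34 control-only regions. Leaving out 1 library gave between 26 and 43 control-only regions. Shares over all regions of the series were not computed for these settings, so these counts do not set the members apart from other regions. Over the annotated span alone (flank of 0), the TSC1 differences in covered length and widest peak turned to 175 bp, and after joining the RPTOR difference in number of peaks turned to 1.5. The differences in number of peaks that did not separate the groups also turned to 0.5 at TSC1 (flank of 0) and at AKT1S1 (equal numbers). Of 228 single-gene values under other settings, 206 kept their direction and call, 5 that were not called went to 0, 7 lost the call, 5 gained one and 5 reversed. DEPDC5 had no peak left with equal numbers. The cause of these changes was not tested, other than the fewer libraries or peaks that a setting leaves.

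Replicate numbers 2 and 3 occur in both groups, but no label says that they mark a shared batch. The difference between the control libraries correlated with that between the lactate libraries at r = 0.127 across 11870 coding genes, which are not independent. With a replicate block the ratio was 0.411 and 6 members had less covered length in both pairs, with a smallest exact sign-flip p of 0.5. The coding genes with less covered length in both pairs numbered 6983, or 58.8% of the 11870. Recovered depth was lower in both lactate libraries than in both control libraries, and its part in the number of peaks was not tested.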
